A study of Mus musculus with 6 samples.

Results

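Immunoglobulin light chain variable (V) genes were compared between Ppp2ca knockout and wild-type bone marrow cells of mice. Members were taken by symbol: every row named Igkv or Iglv followed by a digit, whatever its value. This gave 163 of the 52550 genes listed, of which 160 were kappa and 3 were lambda genes. On GRCm38, the kappa genes lie on chromosome 6 between 67555497 and 70704177, and the lambda genes on chromosome 16 between 19085017 and 19260859. GENCODE M21 annotates 103 of the members as V genes, 100 of them kappa, and 60 kappa rows as V pseudogenes.

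The knockout (KO) mice had the genotype VAV1crePpp2caf/f, and the wild-type (WT) mice had the genotype Ppp2caf/f. Both groups therefore carry floxed Ppp2ca, the gene of a catalytic subunit of the phosphatase PP2A, and a Cre is named for KO alone. Each group has 3 poly(A) RNA-seq libraries, and the labels call all cells hematopoietic stem cells from bone marrow. Vav1-Cre is known to be active throughout the blood lineages, so B cells and plasma cells of KO mice can carry the deletion as well. The labels give no strain, age, sex or sorting markers and do not say whether each library came from its own animal, so p-values measure the spread between these libraries. Values are normalised read counts, which are reads per gene divided by 1 size factor per library and not by gene length. The libraries held 46033994, 50992981 and 58692037 reads in KO, and 37951985, 48665968 and 47815466 in WT (replicates 1 to 3). Ppp2ca had 23728, 22419 and 24046 in KO, against 32909, 33451 and 33169 in WT, so the 2 groups did not overlap and the transcript was lower, but far from 0, in every KO library (log2 difference -0.50, SE 0.07, limma with Benjamini-Hochberg adjustment, adjusted p = 0.0027). Of the labelled cell type, 10 of 10 stem and progenitor genes looked up were read in every library, among them the stem cell gene Hlf at 419 to 622 in KO, against 908 to 1662 in WT. Of these 10, 7 fell in KO, among them Mecom, Procr and Slamf1 with log2 differences of -2.23, -2.22 and -2.39, and 2 rose, the granulocyte and monocyte progenitor genes Mpo by 0.37 and Ctsg by 1.39 (limma adjusted p between 0.00043 and 0.035 for the 9), and their part in the light chain result was not tested. Mpo and Ctsg stood far above Hlf in every library. Mpo had 1142749 to 1299083 in KO, against 889494 to 1033701 in WT. Ctsg had 259079 to 301661 in KO, against 93966 to 120808 in WT.

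A light chain is encoded by 1 V gene joined to 1 short joining (J) gene by the RAG1 and RAG2 recombinase in the precursors of B cells, and it is then spliced to a constant (C) gene. Each B cell clone thus transcribes mainly the V gene it has joined, and plasma cells, which secrete antibody, carry very large amounts of that transcript. The set of V genes seen in bulk RNA is therefore known as a record of which B cell and plasma cell clones contributed RNA. In mice most antibodies carry a kappa chain, and the kappa locus holds many V genes in both orientations, while the lambda locus holds few.

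Before any result, the members found in KO replicate 3 need stating. Of its 13 members above 0, 12 were also above 0 in KO replicate 1 or 2, and those 2 libraries shared Iglv1 and no kappa gene. Of the 15 members above 0 in any KO library, 13 had a value in KO replicate 3 that lay within the range of the other 2, against 3 in replicate 1 and 2 in replicate 2. The same was seen across genes with at least 100 normalised reads in each library of a group: 57.0% of 11222 genes lay between the other 2 libraries in KO replicate 3, against 22.2% and 20.8% in KO replicates 1 and 2, and between 29.1% and 39.1% in the WT replicates. The labels do not say whether these libraries share cells or RNA, and this was not tested. The main comparisons are therefore also given without KO replicate 3, and each KO library's own value is shown.

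Light chain V transcripts were far lower in KO. The summed kappa V value was 404, 155 and 299 normalised reads in KO replicates 1 to 3, against 17799, 6385 and 7097 in WT replicates 1 to 3. The summed lambda V value was 9.65, 134 and 50.9 in KO, against 2005, 987 and 4839.7 in WT. For neither sum did the groups overlap, and the lowest WT library stood many-fold above the highest KO library in both. The mean kappa sum was 286 ± 125 in KO and 10427 ± 6394 in WT (SD, n = 3 each), so KO held 2.74% of the WT mean, or 2.68% without KO replicate 3 and 4.24% without WT replicate 1. The mean lambda sum was 64.7 ± 63.1 in KO and 2610.4 ± 1997 in WT, which is 2.48%, or 2.74% without KO replicate 3, 1.16% without KO replicate 2 and 4.33% without WT replicate 3. Light chain V genes took 8.39, 5.77 and 6.90 RPM (reads scaled to the same library total) in KO, against 446, 159 and 264 in WT. In bulk samples, fewer cells that carry these transcripts and less transcript per cell cannot be told apart.

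The constant gene Igkc and the antibody joining chain gene Jchain followed the same order of groups. Igkc, the kappa constant gene, had 753, 232 and 545 normalised reads in KO, against 29557, 10624 and 12701 in WT. It fell by 5.11 on the log2(value + 1) scale (SE 0.50, limma with Benjamini-Hochberg adjustment, adjusted p = 0.00089), with a log2 difference of -5.24 without KO replicate 3 (adjusted p = 0.0064). Jchain, which links antibody units into polymers and is abundant in plasma cells, had 78.2, 197 and 147 in KO, against 12902, 1159 and 5138 in WT, and fell by 5.01 (SE 0.79, limma adjusted p = 0.0045), with a log2 difference of -5.08 without KO replicate 3 (adjusted p = 0.021). Kappa V reads per Igkc read were 0.536, 0.669 and 0.547 in KO, against 0.602, 0.601 and 0.559 in WT, with no division by length. That ratio overlapped between the groups and stayed within a narrow range in all 6 libraries, while both of its terms differed many-fold. The ratio of light chain V to Jchain reads overlapped as well, at 5.29, 1.46 and 2.38 in KO, against 1.53, 6.36 and 2.32 in WT.

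**Figure D1:**
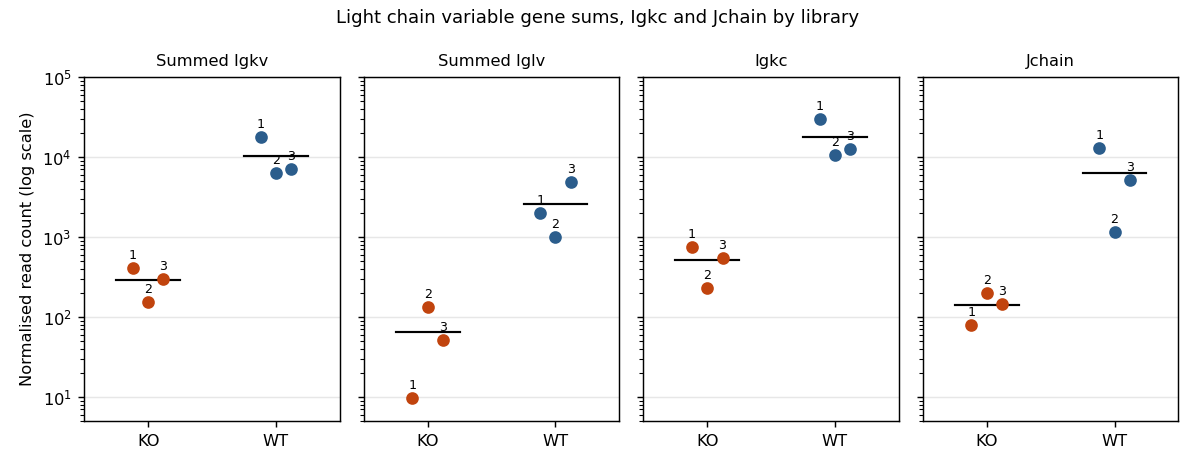
Summed kappa V, summed lambda V, Igkc and Jchain values in each library, in normalised reads on a log axis, with KO libraries left of WT libraries and a bar at each group mean. For all 4 quantities every KO library lies below every WT library, and the kappa sums run from 155 to 404 in KO and from 6385 to 17799 in WT.

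Few V genes carried the KO reads. Of the 163 members, 80 were listed at 0 in all 6 libraries, 22 of them annotated as V genes and 58 as pseudogenes. Members above 0 numbered 15 in any KO library and 80 in any WT library, and 12 were above 0 in both groups. The number above 0 was 8, 7 and 13 in KO, against 64, 41 and 40 in WT, or 9.33 ± 3.21 and 48.3 ± 13.6 (SD, n = 3 each), with a KO mean of 7.5 without replicate 3. Counting members with at least 3 reads gave 7, 7 and 13 in KO, against 61, 37 and 35 in WT, so the groups were also apart there. A library with fewer light chain V reads can show fewer genes, so the number expected in a draw of 294 such reads, the lowest total, was computed for each library. It was 7.94, 7 and 13.0 in KO, against 50.9, 31.5 and 27.0 in WT, so equal reads narrowed the gap between the groups and did not close it.

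The KO reads were also less even over the genes. The leading member was Igkv1-110 in KO replicate 1 with 49.0% of all light chain V reads, Iglv1 in KO replicate 2 with 35.7%, and Igkv1-110 in KO replicate 3 with 31.1%. The leading member in WT was Iglv1 in replicate 1 with 8.20%, Igkv6-23 in replicate 2 with 13.7%, and Iglv2 in replicate 3 with 29.3%. The effective number of genes, which is the number of equally used genes that would give the same evenness (inverse Simpson index), was 3.35, 4.46 and 6.42 in KO, against 27.5, 15.2 and 8.05 in WT. The groups did not overlap on this measure, but WT replicate 3, led by Iglv2, came close to KO replicate 3. The first 5 members together held 93.8%, 93.9% and 74.3% of the reads in KO, against 32.3%, 48.4% and 62.2% in WT.

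**Figure D2:**
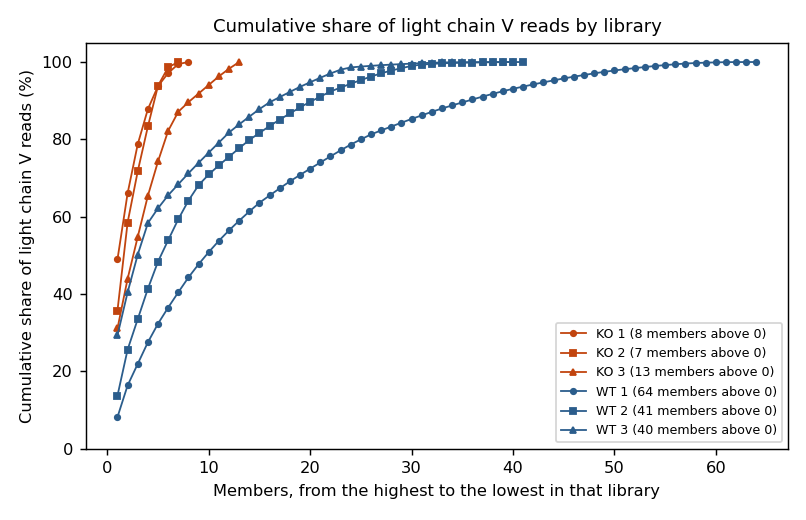
Cumulative share of light chain V reads (percent) against the number of members, ranked from most to least read in each library, with a line per library. The KO lines reach 74.3% to 93.9% at the fifth member and the WT lines 32.3% to 62.2%.

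The 3 kappa genes with the highest WT means were at 0 in all KO libraries. Igkv8-30 had 0, 0 and 0 normalised reads in KO, against 952, 582 and 973 in WT. Igkv14-126 had 0, 0 and 0 in KO, against 1107, 518 and 324 in WT. Igkv6-23 had 0, 0 and 0 in KO, against 621, 1012 and 310.3 in WT. All of the WT libraries were high for these genes, and no KO library had a single read of them. Set against a floor of 3 reads in each KO library, which covers counting error only, Igkv8-30 was at least 287-fold lower, Igkv14-126 at least 223-fold lower and Igkv6-23 at least 222-fold lower in KO.

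The coding ends of these genes, and of the genes read in KO that are described next, are printed to show which templates were read. Each line holds the last 54 coding bases as annotated in GENCODE M21 on GRCm38, read 5′ to 3′ on the coding strand. The capitals start at the codon of the conserved last cysteine, a TGT or TGC in frame, and run to the end of the V segment, which supplies the V part of the third antigen-contacting loop. The first lines are genes read in WT with 0 reads in KO.
Igkv8-30 (chr6:70117061-70117114, minus strand): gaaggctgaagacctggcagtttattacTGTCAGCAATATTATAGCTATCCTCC
Igkv14-126 (chr6:67896589-67896642, plus strand): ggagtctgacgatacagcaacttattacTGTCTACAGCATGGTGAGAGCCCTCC
Igkv6-23 (chr6:70260409-70260462, minus strand): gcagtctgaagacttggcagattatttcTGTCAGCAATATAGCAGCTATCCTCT
Igkv4-70 (chr6:69267888-69267941, minus strand): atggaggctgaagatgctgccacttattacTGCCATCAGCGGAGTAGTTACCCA
Igkv6-14 (chr6:70434952-70435005, minus strand): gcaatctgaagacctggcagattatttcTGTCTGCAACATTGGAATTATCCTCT
Igkv8-21 (chr6:70314895-70314948, minus strand): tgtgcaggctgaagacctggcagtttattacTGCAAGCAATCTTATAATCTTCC
The next lines are the kappa genes with the most KO reads.
Igkv1-110 (chr6:68271214-68271267, plus strand): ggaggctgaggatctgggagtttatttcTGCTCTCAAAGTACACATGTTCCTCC
Igkv14-111 (chr6:68256816-68256869, plus strand): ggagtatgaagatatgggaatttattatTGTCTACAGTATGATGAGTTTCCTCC
Igkv15-103 (chr6:68437872-68437925, plus strand): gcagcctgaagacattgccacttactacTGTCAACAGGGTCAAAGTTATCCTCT
Igkv4-59 (chr6:69438218-69438271, minus strand): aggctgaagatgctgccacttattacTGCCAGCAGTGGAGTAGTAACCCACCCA
Igkv4-58 (chr6:69500254-69500307, minus strand): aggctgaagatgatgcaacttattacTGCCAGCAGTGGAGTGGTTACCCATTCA
Igkv12-38 (chr6:69943186-69943239, minus strand): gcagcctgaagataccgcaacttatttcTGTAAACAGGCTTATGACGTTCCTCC

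The test across all genes could reach 21 of the members, those that reached 1 normalised read or more in 3 of 6 libraries. The other 142 reached it in too few libraries, some of them with many reads, such as Igkv19-93 with 945 reads in WT replicate 1. Of the 21, 14 were called lower and 0 higher in KO by limma at an adjusted p of 0.05, and 13% of the 20136 genes tested were called lower and 10.3% higher. At an unadjusted p under 0.05, 15 of the 21 were lower, as were 19.5% of all genes tested. In 15 of the 21 the groups did not overlap with KO lower, as in 21.7% of all genes tested. Members at 0 in KO reach the filter only through WT, where they are high, so these counts describe the members that passed and nothing is read from them about all 163. The median log2 difference was -6.21 over the 21, against -0.02 over all genes tested. With no filter, 14 of the 83 members above 0 were called lower, against 8.9% of all genes, and the median was -2.76 over the 83, against -0.04 over all genes. Without KO replicate 3, 14 were again called lower, against 8.14% of all genes.

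Of the 14 called members, 11 were at 0 in every KO library. The fitted difference, which for a group at 0 depends on the added 1, was largest in size for Igkv8-30, which fell by 9.67 on the log2(value + 1) scale (SE 0.44, limma adjusted p = 0.00027). Igkv6-23 fell by 9.18 (SE 0.55, limma adjusted p = 0.00039) and Igkv14-126 fell by 9.16 (SE 0.56, limma adjusted p = 0.00039). Igkv4-61, with 320.5, 117 and 459 in WT, Igkv12-44, with 264, 98.0 and 118 in WT, and Igkv6-15, with 827, 294 and 69.1 in WT, were all at 0 in KO and called lower. The remaining called members at 0 in KO were Igkv10-94, Igkv10-96, Igkv17-121, Igkv17-127 and Igkv8-21, with adjusted p between 0.00084 and 0.0077 in limma. Igkv8-21 was uneven within WT, at 533, 878 and 15.1. Igkv12-46 was the called kappa gene still read in KO, at 0, 33.4 and 7.77, against 783, 165 and 342 in WT. It fell by 5.72 (SE 1.21, limma adjusted p = 0.014), but the adjusted p was 0.068 without WT replicate 1 and 0.057 without the intensity trend of limma.

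The kappa genes that led the KO libraries, Igkv1-110 and Igkv14-111, were not called. Igkv1-110 had 203, 0 and 109 normalised reads in KO, against 309, 23.8 and 15.1 in WT. Igkv14-111 had 0, 65.8 and 37.1 in KO, against 40.9, 61.9 and 0 in WT. Igkv15-103 had 70.7, 0 and 27.6 in KO, against 124, 134 and 0 in WT. For all of these the groups overlapped, and a KO library without a read stood beside KO libraries with many. Igkv4-59 had 52.5, 0 and 38.0 in KO, against 675, 204 and 26.5 in WT. Igkv1-117 had 37.5, 0 and 8.63 in KO, against 329.8, 1.90 and 400.2 in WT. Igkv5-39 had 0, 13.8 and 6.90 in KO, against 45.6, 0 and 0 in WT.

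None of these 6 passed the test, and neither did Igkv4-54, a gene with 0 in KO, against 1.17, 1.90 and 3.78 in WT. The log2 differences ran from -3.61 for Igkv4-59 (SE 1.68, limma adjusted p = 0.17) to 0.44 for Igkv5-39 (SE 1.68, limma adjusted p = 0.88). For Igkv1-110 it was -0.82 (SE 2.02, limma adjusted p = 0.81) and for Igkv14-111 -0.02 (SE 1.99, limma adjusted p = 0.997). Standard errors of this size mean that a change of several-fold in either direction was not detectable for these genes.

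Only 3 members were read in KO and not in WT, and they are named here because they are so few. Igkv4-58 had 24.6, 0 and 31.1 normalised reads in KO, from 23, 0 and 36 reads, and 0 in every WT library. Igkv12-38 had 0, 38.3 and 17.3 in KO, from 0, 39 and 20 reads, and 0 in every WT library. Igkv8-19 had 13.9, 0 and 7.77 in KO, from 13, 0 and 9 reads, and 0 in every WT library. Each was read in KO replicate 3 and in 1 other KO library, so none was above 0 in all of KO and the limma filter left all of them out. DESeq2 on the whole reads, which was run without that filter, gave 50 members an adjusted p and called 2 of them higher in KO. They were Igkv4-58 (DESeq2 adjusted p = 0.014) and Igkv12-38 (DESeq2 adjusted p = 0.015). Of all genes with an adjusted p, 12.5% were called higher. Both genes were picked because they were read in KO alone, and DESeq2 was not run without KO replicate 3. Nothing is therefore read from these 2 calls. The other 12 members of KO were all read in at least 1 WT library.

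The WT libraries also differed from each other in which kappa genes they held. Igkv4-70 had 1619, 0 and 251 normalised reads in WT, and 0 in every KO library. Igkv6-14 had 111, 0 and 1165 in WT, Igkv19-93 had 1105, 0 and 0, and Igkv13-84 had 579, 355 and 0, with 0 in every KO library for all of them. These genes were thus high in 1 or 2 WT libraries and without a read in another. In all, 19 members had at least 100 reads in 1 WT library and 0 in the other 2, with 13 of these in WT replicate 1, 2 in replicate 2 and 4 in replicate 3. Of the 80 members above 0 in WT, 34 were seen in 1 library, 27 in 2 and 19 in all 3. Among those 19, the highest WT value was between 1.67 and 210.3 times the lowest, with a median of 6.02 times.

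**Figure D3:**
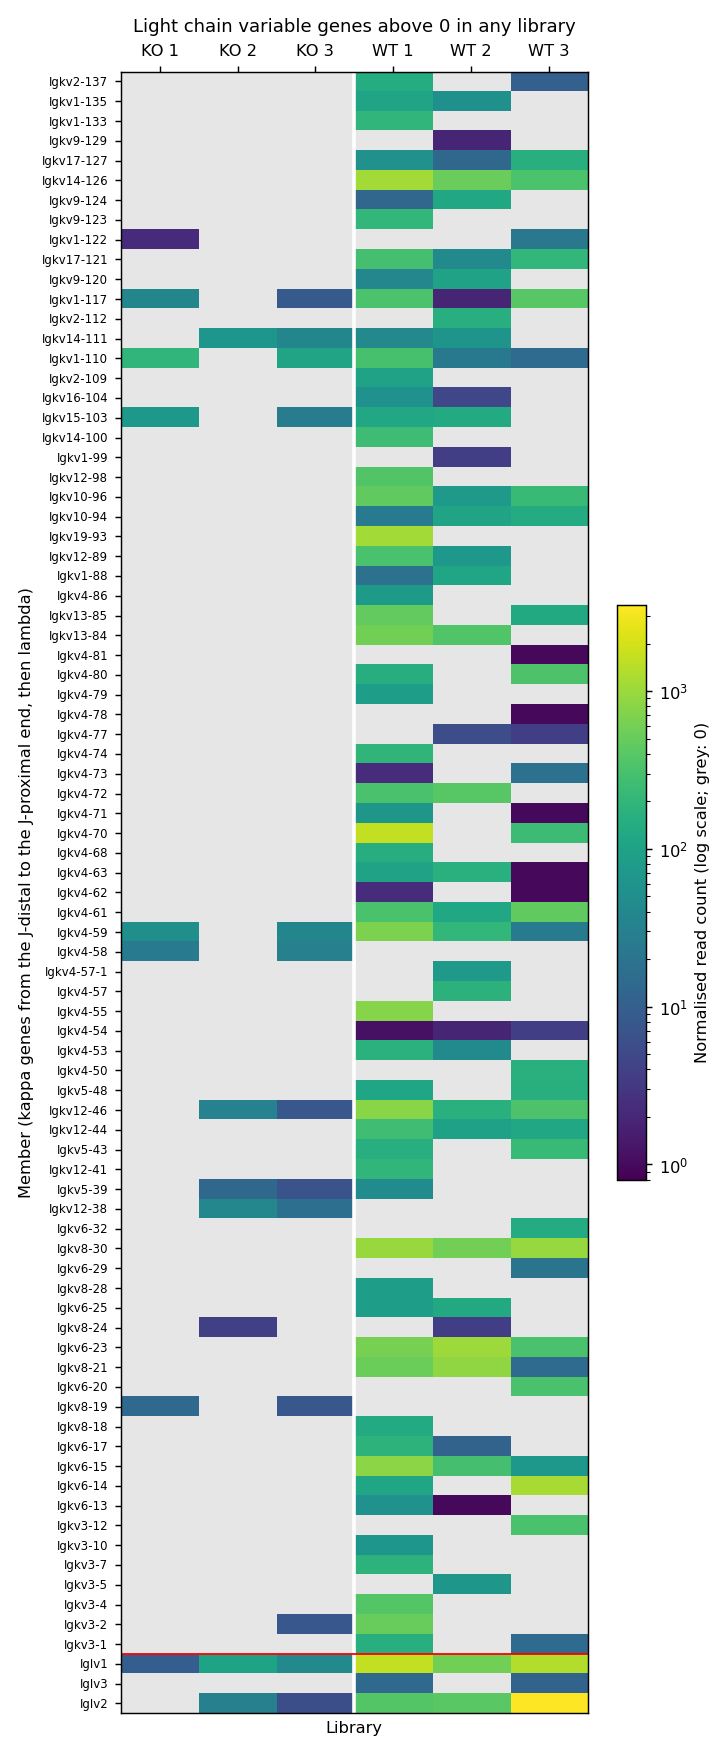
Value of each of the 83 members above 0 in any library, in normalised reads on a log colour scale with 0 in grey, with the KO libraries left of the WT libraries and each member on its own row. Most rows with high values in WT are at 0 in KO, while Igkv1-110, Igkv14-111 and Igkv15-103 hold values in both groups and each has a library at 0 in KO and, for the last 2, in WT.

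The pseudogenes gave very few reads. Their summed reads were 0, 0 and 0 in KO, against 2, 6 and 23 in WT, all from Igkv4-73 and Igkv4-77. Many members resemble each other closely. Of the 83 members above 0, 46 had another member at least 95% identical over the coding sequence, and the median closest identity was 95.5%. Members with such a neighbour held 82.4%, 57.8% and 72.3% of the light chain V reads in KO, against 57.8%, 42.4% and 68.9% in WT. The labels do not say what was done with reads that match more than 1 gene, so values of close pairs are uncertain.

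Igkv1-110, the leading kappa gene of KO replicates 1 and 3, and Igkv1-117 show how close such a pair is. Their coding sequences differ at 10 of 359 bases (97.2% identity). The last 300 coding bases of both are printed, all within the V exon and holding all 10 differences, which capitals mark.
Igkv1-110 (chr6:68270968-68271267, plus strand): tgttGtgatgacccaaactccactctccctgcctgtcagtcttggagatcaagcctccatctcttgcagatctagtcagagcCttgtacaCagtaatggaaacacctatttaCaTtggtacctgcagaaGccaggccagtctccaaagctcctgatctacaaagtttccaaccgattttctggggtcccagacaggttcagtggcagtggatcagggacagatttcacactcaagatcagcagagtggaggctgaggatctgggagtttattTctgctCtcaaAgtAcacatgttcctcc
Igkv1-117 (chr6:68121528-68121827, plus strand): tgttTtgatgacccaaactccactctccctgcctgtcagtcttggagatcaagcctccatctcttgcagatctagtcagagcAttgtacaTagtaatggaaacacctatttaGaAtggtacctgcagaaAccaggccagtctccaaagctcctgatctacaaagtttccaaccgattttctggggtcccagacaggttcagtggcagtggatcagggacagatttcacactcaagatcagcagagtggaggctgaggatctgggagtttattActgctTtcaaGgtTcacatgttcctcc
Both have 359 coding bases. Igkv1-110 was the higher of the pair in KO replicates 1 and 3 and in WT replicate 2, Igkv1-117 was the higher in WT replicate 3, and in WT replicate 1 the values were close.

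Of the lambda genes, Iglv1 and Iglv2 were read in both groups and fell in KO. Iglv1 was the only member above 0 in all 6 libraries, with 9.65, 103 and 44.9 normalised reads in KO, against 1624, 579 and 1327 in WT. It fell by 4.86 (SE 0.79, limma adjusted p = 0.0050; 0.021 without KO replicate 3), and no KO library reached the lowest WT library. Iglv2 had 0, 30.5 and 6.04 in KO, against 367, 408 and 3501 in WT, and fell by 7.06 (SE 1.32, limma adjusted p = 0.0085; 0.033 without KO replicate 3). WT replicate 3 stood apart from the other WT libraries for Iglv2. Iglv3 had 0, 0 and 0 in KO, against 14.0, 0 and 11.4 in WT, and was read in too few libraries for the test. Iglv1 and Iglv2 differ at 11 of 351 coding bases (96.9% identity), and the last 300 coding bases, all within the V exon, hold 8 of these, which capitals mark.
Iglv1 (chr16:19085017-19085316, minus strand): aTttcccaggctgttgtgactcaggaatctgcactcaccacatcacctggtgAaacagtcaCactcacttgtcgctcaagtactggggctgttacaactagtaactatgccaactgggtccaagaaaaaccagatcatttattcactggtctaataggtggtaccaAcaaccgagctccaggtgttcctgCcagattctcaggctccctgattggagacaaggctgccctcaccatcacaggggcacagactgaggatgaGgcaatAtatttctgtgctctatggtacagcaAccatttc
Iglv2 (chr16:19260401-19260700, minus strand): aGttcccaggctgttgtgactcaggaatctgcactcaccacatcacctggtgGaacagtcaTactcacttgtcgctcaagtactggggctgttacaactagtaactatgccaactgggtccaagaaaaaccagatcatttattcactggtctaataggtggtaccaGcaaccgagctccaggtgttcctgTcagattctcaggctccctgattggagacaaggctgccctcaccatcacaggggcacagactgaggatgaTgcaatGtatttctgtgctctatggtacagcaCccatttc
Both lie on the minus strand of chromosome 16, and reads in the shared stretches cannot tell them apart by sequence.

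The lambda constant genes gave a separate view of the same choice, since Iglv2 is known to join mostly in front of Iglc2, and Iglv1 in front of Iglc3 or Iglc1. Iglc1 had 22.5, 100.2 and 29.3 normalised reads in KO, against 2114, 709.9 and 919 in WT, and fell by 4.74 (SE 0.61, limma adjusted p = 0.0022). Iglc2 had 0, 16.7 and 6.90 in KO, against 667, 268 and 5054 in WT, and fell by 7.54 (SE 1.30, limma adjusted p = 0.0062). Iglc3 had 0, 166 and 84.6 in KO, against 51.5, 1.90 and 1028 in WT. The Iglc3 values overlapped, with KO replicate 2 above WT replicates 1 and 2, and the gene was not called (log2 difference -1.15, SE 2.45, limma adjusted p = 0.78). Iglc4 had 3 reads in WT replicate 1 and none elsewhere. Iglv2 made up 0%, 22.8% and 11.9% of the lambda V reads in KO, against 18.3%, 41.4% and 72.3% in WT. Iglc2 made up 0%, 5.90% and 5.71% of the lambda C reads in KO, against 23.5%, 27.4% and 72.2% in WT. The Iglv2 shares overlapped and the Iglc2 shares did not, and WT replicate 3 was the highest on both. Iglc2 and Iglc3 together made up 0%, 64.6% and 75.7% of the lambda C reads in KO, against 25.3%, 27.6% and 86.9% in WT. These joint shares overlapped, so the gap in Iglc2 rests on how reads were split between Iglc2 and Iglc3. How reads that match more than 1 gene were treated is not given. Lambda V reads per lambda C read were 0.429, 0.472 and 0.421 in KO, against 0.707, 1.01 and 0.691 in WT, so here, unlike for kappa, the groups did not overlap.

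The balance of kappa to lambda varied more within the groups than between them. Kappa V values were 41.9, 1.16 and 5.86 times the lambda V values in KO, against 8.88, 6.47 and 1.47 times in WT. The KO libraries held both the highest and the lowest of the 6 ratios, and the groups overlapped. The difference in mean log2 of these V gene ratios, KO minus WT, was 0.59. Lambda made up 2.33% (exact binomial 95% interval 1.07% to 4.38%), 46.3% (40.5% to 52.1%) and 14.6% (11.3% to 18.4%) of the light chain V reads in KO. In WT it made up 10.1% (9.67% to 10.6%), 13.4% (12.6% to 14.2%) and 40.5% (39.7% to 41.4%). These intervals cover counting error only, and the spread between libraries of 1 group was far beyond it. From the constant genes, Igkc was 33.5, 0.819 and 4.51 times the summed lambda C genes in KO, against 10.4, 10.8 and 1.81 times in WT, with KO replicate 1 again the highest and KO replicate 2 again the lowest of the 6 libraries. The log2 difference of that ratio was -0.24 (two-sided exact permutation p = 1.0, n = 3 each, where 0.1 is the smallest possible).

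**Figure D4:**
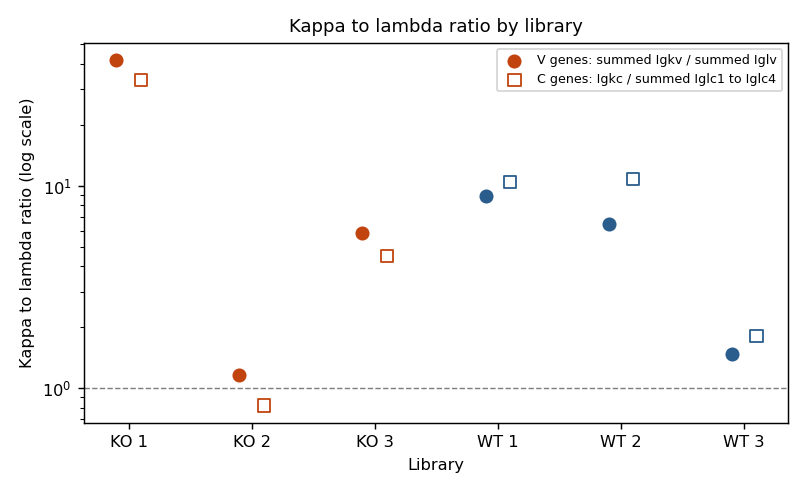
Ratio of kappa to lambda in each library on a log axis, from V genes and from constant genes, with KO libraries left of WT libraries. The KO libraries run from 1.16 to 41.9 by V genes and enclose the WT libraries, which run from 1.47 to 8.88.

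The 160 kappa rows fall into 20 families by sequence, given by the number after Igkv, and the families of the KO reads differed from library to library. Reads were found for 8 families in KO and for 16 in WT, and 4 families (Igkv7, Igkv11, Igkv18 and Igkv20) were at 0 in all 6 libraries. In WT, 11 families were above 0 in every library, while in KO Igkv8 alone was, with 3.45%, 2.53% and 2.60% of the kappa V value, against 9.58%, 22.9% and 13.9% in WT. Igkv4, the family with the most rows at 33, held 19.1%, 0% and 23.1% in KO, against 26.3%, 18.5% and 17.8% in WT. Igkv6, with 9 rows, held 0% in every KO library, against 10.6%, 22.7% and 28.4% in WT. Igkv4 thus overlapped between the groups, while Igkv6, one of the most used families of WT, had no read in KO.

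Igkv1 was the leading family of KO replicates 1 and 3. It held 59.9%, 0% and 39.3% of the kappa V value in KO, against 5.40%, 3.11% and 6.17% in WT. Igkv12 held 0%, 46.2% and 8.38% in KO, against 10.8%, 5.22% and 6.48% in WT, and Igkv14 held 0%, 42.4% and 12.4% in KO, against 7.89%, 9.08% and 4.56% in WT. These 3 families reached shares in single KO libraries that no WT library had, but each was also at 0 in a KO library, so the groups overlapped. Igkv15, whose only V gene is Igkv15-103, held 17.5%, 0% and 9.25% in KO, against 0.697%, 2.10% and 0% in WT. Shares of 6 of the 20 families did not overlap between the groups, all lower in KO: Igkv2, Igkv6, Igkv8, Igkv10, Igkv13 and Igkv17. All of these except Igkv8 were at 0 in KO, where the kappa V reads numbered only 377, 158 and 346. Igkv2 held as little as 0.147% in WT replicate 3, and Igkv17 0.894% in WT replicate 2. At that depth a 0 in KO is not read as a change in the share of Igkv2, Igkv10, Igkv13 or Igkv17. Igkv6 held at least 10.6% of the kappa V value in every WT library. Whether its 0 in KO is a change in share was not tested.

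The distance between 2 family profiles was measured as the summed absolute difference of their shares divided by 2, which is 0% for the same shares and 100% for no shared family. Between WT libraries it was 25.9% to 32.6%. Between KO libraries it was 97.5% for replicates 1 and 2, 74.3% for replicates 2 and 3, and 29.7% for replicates 1 and 3. Between a KO and a WT library it was 47.6% to 83.2%. KO replicates 1 and 2 were thus further apart than any KO library was from any WT library. Over single genes instead of families, the distance was 37.1% to 97.7% within KO, 50.9% to 64.5% within WT and 75.5% to 93.8% between the groups. The mean profiles of KO and WT lay 59.3% apart, or 64.5% without KO replicate 3.

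**Figure D5:**
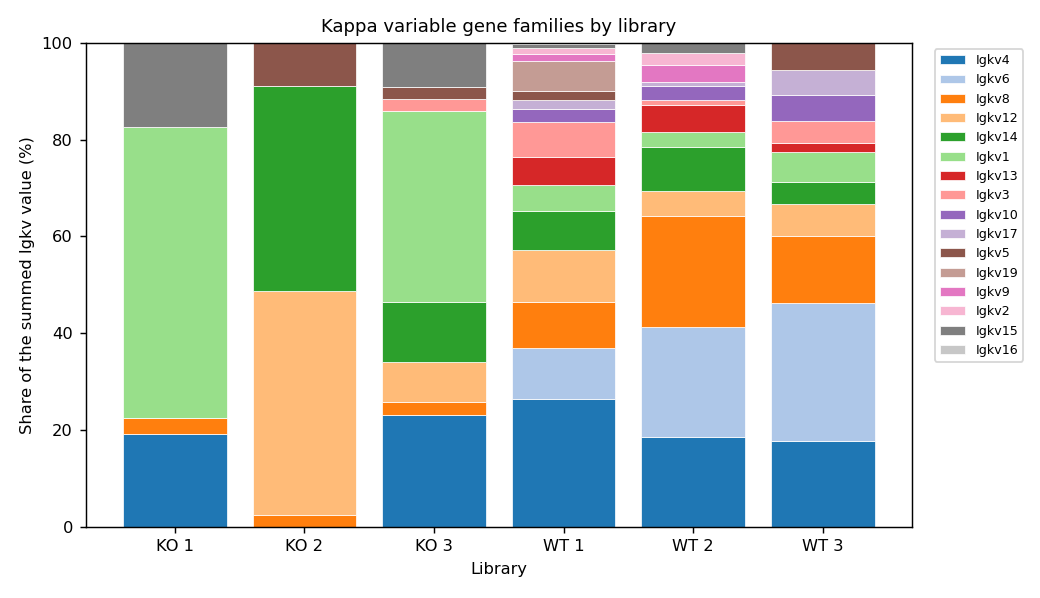
Share of the summed kappa V value (percent) held by each kappa family in each library, stacked to 100%, with KO libraries left of WT libraries. WT libraries spread over 12 to 16 families, while KO replicate 1 is led by Igkv1 at 59.9% and KO replicate 2 by Igkv12 at 46.2% and Igkv14 at 42.4%.

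Position along the kappa locus was compared by cutting the stretch from the J genes to the farthest V gene, about 3167 kb, into 3 equal parts. The part farthest from J, with 26 of the 100 V genes, gave 77.5%, 42.4% and 61.0% of the kappa V value in KO, against 20.96%, 19.4% and 16.1% in WT. The groups did not overlap, with all KO libraries higher. Most of that came from the leading gene of each KO library: Igkv1-110 lies 2451 kb from the first J gene and Igkv14-111 lies 2466 kb from it. With the leading kappa gene of every library left out, the share was 54.8%, 0% and 38.6% in KO, against 23.1%, 23.1% and 19.2% in WT. The groups then overlapped through KO replicate 2 alone. The leading gene lay in this part in every KO library and in no WT library. Leaving it out could thus only lower the KO shares and raise the WT shares, so nothing is read from the overlap. The part nearest to J, with 42 V genes, gave 3.45%, 57.6% and 15.9% in KO, against 36.1%, 50.8% and 61.3% in WT, which overlapped. The middle part, with 32 V genes, gave 19.1%, 0% and 23.1% in KO, against 43.0%, 29.8% and 22.7% in WT, which also overlapped.

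V genes that lie in the orientation of the J genes are known to join by deletion of the DNA between them, and those in the opposite orientation by inversion. Genes in the orientation of J gave 77.5%, 42.4% and 63.6% of the kappa V value in KO, against 32.4%, 26.3% and 20.7% in WT, with no overlap. Without the leading kappa gene of each library these shares were 54.8%, 0% and 42.7% in KO, against 35.6%, 31.3% and 24.8% in WT. The groups overlapped through KO replicate 2 alone. Here too the leading gene was in the orientation of J in every KO library and in no WT library. Leaving it out could only narrow the gap, so nothing is read from this overlap. Orientation and distance are not separate measures here, since 40 of the 47 rows in the part farthest from J lie in the orientation of J.

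Genes of the cells that make light chains were looked up beside these values. The B lineage list had 11 of 18 genes tested, of which 4 fell (Ighm, Ighd, Cd22 and Spib) and 1 rose (Cd24a), with summed levels of 25983 to 33184 in KO, against 35451 to 46169.6 in WT. Cd24a alone gave 17406 to 22913 of these sums in KO, against 13356 to 17076 in WT. Ighm gave 2050 to 4693 in KO, against 15707 to 22291 in WT. The defining transcription factor genes of the B lineage, Pax5 and Ebf1, were at 0 in all 6 libraries, and Ms4a1, the CD20 gene, had reads in WT replicate 1 alone. Cd79a, a signalling chain of the B cell receptor, had 15.0, 7.86 and 34.5 in KO, against 56.1, 40.0 and 72.9 in WT, and was not called (log2 difference -1.70, SE 0.60, limma adjusted p = 0.079), while without KO replicate 3 the adjusted p was 0.048. The other tested genes of the list were not called either, and not all of them were lower. Cd37 had 3404, 3360 and 3520 in KO, against 3108, 3578 and 3192 in WT (log2 difference 0.06, SE 0.09, limma adjusted p = 0.69).

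The plasma cell list had 12 of 14 genes tested, of which 3 fell and 2 rose, with summed levels of 37334 to 41487 in KO, against 27254 to 35393 in WT. Xbp1 alone gave 25751 to 27178 of these sums in KO, against 12800 to 15987 in WT, so the sums hide the falls of other genes. The falls were Jchain, given above, Sdc1 and Mzb1. Sdc1, the gene of the plasma cell surface protein CD138, had 34.3, 81.5 and 10.4 in KO, against 509, 496 and 719 in WT, and fell by 4.14 (SE 0.65, limma adjusted p = 0.0045). Mzb1, which helps antibody assembly, had 16.1, 23.6 and 6.90 in KO, against 165, 82.8 and 72.9 in WT, and fell by 2.76 (SE 0.57, limma adjusted p = 0.012), with an adjusted p of 0.052 without WT replicate 1. Xbp1, a secretory factor gene that many secretory cells use, rose by 0.92 (SE 0.10, limma adjusted p = 0.0012), and so did Fkbp11, whose product acts in the endoplasmic reticulum. Prdm1 and Irf4, transcription factor genes of plasma cells, were low in both groups and not called (limma adjusted p = 0.27 and 0.47). The part of any change in cell makeup in the light chain result was not tested.

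The pro-B and pre-B list, which covers the stages up to the joining of light chain genes, had 8 of 10 genes tested, of which 5 fell and 0 rose, with summed levels of 712 to 1956 in KO, against 8401 to 9895 in WT. Most of that sum was Dntt, with 423, 1616 and 1148 in KO, against 7480, 8903 and 8893 in WT. Dntt fell by 3.18 (SE 0.43, limma adjusted p = 0.0026), and the sum is thus no measure of the light chain joining stage. Rag2, a recombinase gene, had 5.36, 28.5 and 57.8 in KO, against 266, 351 and 441 in WT, and fell by 3.96 (SE 0.75, limma adjusted p = 0.0090). Its partner Rag1 had 5 reads in WT replicate 1 and none elsewhere. The surrogate light chain genes, whose products stand in for a light chain before V and J are joined, gave no call. Igll1 had 149, 61.9 and 76.8 in KO, against 44.4, 34.3 and 0 in WT (log2 difference 2.95, SE 1.36, limma adjusted p = 0.16). Vpreb1 had 42.9, 67.8 and 50.04 in KO, against 87.7, 58.0 and 55.8 in WT (log2 difference -0.32, SE 0.37, limma adjusted p = 0.60). Vpreb3 was read at up to 12.4 and Vpreb2 at 0 in all libraries. The T cell list, with 6 of 8 genes tested and 3 of them lower, summed to 31.1 to 63.0 in KO, against 263 to 409 in WT.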

How the data were processed

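Each library's deposited column holds 1 signal per gene, which the file headers name only as expression. All values (100%) were whole multiples of 1 step per library, within 0.01 of a read, so they are read counts the authors divided by 1 size factor per library, and division by the step (0.863 to 1.17) gave whole reads. The submitters' processing notes list HISAT2, StringTie, mm8 and mm10 without roles. Libraries were made with a VAHTS mRNA-seq kit, per the labels' protocols. Strandedness and the treatment of reads that match several genes are not given in the sources used. All 163 members had the identifier and coordinates of GENCODE M21 (GRCm38), from whose transcripts the printed coding sequences were cut with Biopython 1.88. Promoter and protein sequences were not used here.

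KO was compared with WT by limma 3.58.1 (R 4.3.3) on log2(value + 1), two-sided, with an intensity trend in eBayes, for 20136 genes with at least 1 in at least 3 of 6 libraries. P-values were adjusted over all of these (Benjamini-Hochberg) and called under 0.05, and fold changes understate those of low genes. The planned permutation tests of sums, V gene ratios, member numbers and shares are not printed, because 3 against 3 libraries cannot go below p = 0.1 and the members were known. The printed test of the constant gene ratio has the same limit and was not among the planned tests. Shares, sums and ratios are per library. Coding sequences were aligned pairwise, with at least 200 aligned bases. Members, marker lists and tests were chosen with earlier results of these data known. Named were the 12 kappa members with the highest mean, the 6 highest in KO, the leading member of each library, all lambda members, every tested member not called, and fixed constant, joining, recombinase and B cell genes. 1 gene under this rule is not reported here. Those named outside this rule are members called by the test, the 3 members read only in KO, the pseudogenes with reads, Cd37 and the marker genes that passed the test.

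All pairs of libraries differed beyond sampling noise (chi-square per degree of freedom 38.0 to 209). The alternatives were other limma settings, filters, pseudocounts and scalings, edgeR 4.0.16 (quasi-likelihood) and DESeq2 1.42.0 on the whole reads, a replicate block and leaving out each library. Division by exon length, the locus shares without the leading gene and the sums without single libraries were chosen after seeing the data. The procedure was tested on simulated data. Reads carry no molecular identifiers, so intervals, and the floor of 3 reads in a library, take in counting error alone.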

Additional observations from a re-analysis of the deposited data

How the results depend on the processing

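The number of members called lower by limma, 14, was 13 to 15 with each library left out in turn, and the number called higher stayed at 0 there. With DESeq2, 24 of 50 members with an adjusted p were called lower, 13 of them among the 14 of limma, and 2 higher, Igkv4-58 and Igkv12-38, against 15.2% and 12.5% of all genes. The remaining member of the 14, Iglv2, got no adjusted p from DESeq2. edgeR called 14 lower and 0 higher, against 14.9% and 12.4% of all genes. All genes called lower, 2622, numbered 1617 to 2548 with a library left out, and all genes called higher, 2069, numbered 978 to 1808. Genes called higher numbered 1071 without the intensity trend and 3198 with library weights. Equal numbers of light chain V reads changed the difference in members above 0 from -39 to -27.1. The correlations of same-numbered deviations over all genes were -0.02, -0.01 and -0.02, so no deviation shared by replicate number was seen. With 3 libraries a group this cannot exclude a pairing. With the replicate block 15 members were lower, and of all genes 2157 lower and 1705 higher. Igkv1-117 was called with that block (adjusted p = 0.041, limma) and without WT replicate 2 (0.044), and Igkv4-54 without the intensity trend (0.031). The log2 difference in the kappa to lambda ratio, 0.59, ran from -0.75 to 1.84 with a library left out, within its spread of 2.08 (SD). None of the alternatives run reversed a called result. Over the 21 tested members, 368 values under alternatives kept their side of the threshold, 2 lost the call and 3 gained it. In 17 of the 368 the sign changed, all in the uncalled genes Igkv1-110, Igkv5-39, Igkv14-111 and Igkv15-103.

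Depth limits the KO values: a count of 0 in a KO library allows up to 3 reads there, or 2.59 to 3.22 normalised reads. With 3 libraries a group and KO replicate 3 repeating the genes of the other KO libraries, shares and ratios within KO rest on few reads. Division by exon length left the leading members as they were except in WT replicate 1, where Igkv4-70 led in place of Iglv1.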
